A study of Mus musculus with 6 samples.

Results

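The 33 genes described here encode integrin subunits, proteins of focal adhesions, the transcriptional coactivators YAP and TAZ with TEAD1 and their target genes, and the stretch-gated channel Piezo1. They were taken by symbol from the table of gene counts of whole mouse adrenal glands, where each symbol had 1 Ensembl identifier. They make up 33 of the 54532 genes in that table. By role they fall into 9 integrin alpha subunits, 4 integrin beta subunits, 8 focal adhesion proteins, 3 genes for YAP, TAZ and TEAD1, 8 target genes of YAP and TAZ, and Piezo1. The low-count filter kept 32 of the 33, and Ankrd1 was not tested.

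Integrins are receptors for the extracellular matrix, each made of an alpha and a beta chain. On binding matrix they gather talin, vinculin, paxillin and focal adhesion kinase into focal adhesions, which tie the matrix to the actin cytoskeleton. Tension on these sites, stiff matrix and cell spreading let YAP and TAZ enter the nucleus, where they bind TEAD factors and switch on genes such as Ccn1 and Ccn2. The Hippo kinases, Lats2 among them, phosphorylate YAP and TAZ and hold them in the cytoplasm. In the adrenal gland these receptors sit on steroid-making cells, vessel walls and the capsule, all of which rest on basement membrane or fibrous matrix.

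Transcripts were counted by bulk RNA sequencing in 3 adrenal samples labelled WT and 3 labelled VEGF/LysM, and the question was what VEGF-A from macrophages does to the entire gland. LysM is the older name of Lyz2, the lysozyme gene of macrophages and neutrophils. The labels give no allele, strain, sex or age, no treatment, and no statement that replicates are separate animals, so each p covers only spread among these 6 libraries, and that spread may be technical. No treatment or allele shared by both groups is named either.

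Libraries held 16476879 to 18671950 counts. WT replicate 3 stood apart from the rest. There, 13 hepatocyte markers summed to 67951 CPM (the standard unit of counts relative to the library's total), against 998 CPM in VEGF/LysM replicate 3 and 148 to 377 CPM in the 4 remaining libraries. All 9 steroid cell markers of the cortex, which define the labelled tissue, were detected. Their sum was lowest in WT replicate 3, at 23721 CPM, and 46737 CPM or more in each of the others. Lymphocyte markers summed to 1168 CPM in that library, and to 73.7 to 381 CPM in the rest. Endothelial markers were at 612 CPM there, with 860 to 984 CPM in the rest. These sums are relative to totals that include the hepatocyte counts. With the TMM scaling used further below, the endothelial sum was 788 CPM there and 834 to 957 CPM in the rest. Other libraries differed in composition too. The adipocyte marker sum was lowest in VEGF/LysM replicate 1 (2253 CPM), followed by WT replicate 3 (2557 CPM). Every other library had at least 4794 and at most 5291 CPM. The list was split in VEGF/LysM replicate 1. Cfd was at 518.6 CPM there, against 2587 to 2972 CPM in the libraries with the higher sums. Cidec and Retn were also lowest in VEGF/LysM replicate 1, but Lep was highest there. Adipoq, Plin1, Pnpla2 and Lipe were lowest in WT replicate 3. Capsule and fibroblast markers were lowest in VEGF/LysM replicate 3, at 471.5 CPM, with 567 to 892 CPM elsewhere. Chromaffin markers summed to 9840 CPM in VEGF/LysM replicate 3 and 3027 CPM in WT replicate 3, with 5735 to 7384 CPM elsewhere. Of these, Ddc and Pnmt were not highest in VEGF/LysM replicate 3. Kidney tubule markers summed to 34.7 CPM in WT replicate 3 and 4.31 CPM in VEGF/LysM replicate 3, with 0.301 to 1.82 CPM elsewhere. The part that these differences of composition played in the results below was not tested. Results that rest on WT replicate 3 are given with and without it.

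YAP and TAZ reach DNA through TEAD factors, so the promoter sequences of their targets come first. TEAD factors bind the letters CATTCC, or GGAATG when read on the other strand. RefSeq promoter windows (GRCm38.p6) were found for 26 of the 33 genes, some with more than 1 window, and the 250 bases before each start were searched on both strands. The motif lay in 6 of the 8 windows of YAP and TAZ targets, in 3 of 3 windows of Yap1 and Wwtr1, in 1 of 3 windows of beta subunits (Itgb1), in 1 of 9 of focal adhesion proteins (Vcl), in 0 of 8 of alpha subunits, and in 12.6% of all 32851 windows of the same length. The 2 windows of Wwtr1 overlap and share 1 site, and Ccn2 was among the genes with no window. The targets were listed because YAP and TAZ are known to regulate them, so this count is a description and no independent evidence. The sites of the 6 target genes follow, each read 5′ to 3′ on the gene's strand with the TEAD motif in capitals.
Ccn1, chr3:145650071-145650100, minus strand: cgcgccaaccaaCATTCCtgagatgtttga
Amotl2, chr9:102717727-102717756, plus strand: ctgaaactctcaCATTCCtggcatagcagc
Crim1, chr17:78200157-78200186, plus strand: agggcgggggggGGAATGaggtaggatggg
Axl, chr7:25788949-25788978, minus strand: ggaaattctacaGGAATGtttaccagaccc
Ajuba, distal site, chr14:54577830-54577859, minus strand: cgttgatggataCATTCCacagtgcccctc
Ajuba, proximal site, chr14:54577808-54577837, minus strand: tgcccctccgcgCATTCCaactgtaaacaa
Ankrd1, distal site, chr19:36120037-36120066, minus strand: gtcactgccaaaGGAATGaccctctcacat
Ankrd1, proximal site, chr19:36119950-36119979, minus strand: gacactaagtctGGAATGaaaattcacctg

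The sites began 65 bases before the start in Amotl2, 79 in Crim1, 103 in Ccn1 and 233 in Axl, while Ajuba and Ankrd1 each had 2. These distances hold for the RefSeq starts, and the GENCODE annotation differed in places. There, all 250 bases of the Ankrd1 window and 136 of the Amotl2 window lay in annotated exons. For Ccn1, Axl and Ajuba the bases just after the start were not found in a GENCODE transcript of the gene. Lats2 had no such letters in its windows. Ccn1 was the most variable tested gene of the 33 across the 6 libraries, and Crim1 had the smallest p of them between the groups, so the whole upstream window of each is shown, again with the TEAD motif in capitals.
Ccn1, chr3:145649986-145650235, minus strand: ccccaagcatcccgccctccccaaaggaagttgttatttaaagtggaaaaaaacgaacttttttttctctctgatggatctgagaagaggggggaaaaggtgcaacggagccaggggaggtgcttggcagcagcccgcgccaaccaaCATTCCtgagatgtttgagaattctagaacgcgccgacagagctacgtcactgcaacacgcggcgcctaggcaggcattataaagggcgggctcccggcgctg
Crim1, chr17:78199998-78200247, plus strand: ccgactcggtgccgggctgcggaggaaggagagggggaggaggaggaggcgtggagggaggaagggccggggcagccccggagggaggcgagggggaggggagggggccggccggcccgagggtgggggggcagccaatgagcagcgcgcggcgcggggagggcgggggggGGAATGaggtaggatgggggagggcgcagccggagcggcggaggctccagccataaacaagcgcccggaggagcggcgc

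The motif of AP-1, the factor made by the immediate early genes of the Fos and Jun families, was searched in the same way as TGACTCA or TGAGTCA. It was in 1 of 32 windows of the 33 genes, that of Zyx, against 4.46% of all windows. The Yap1 site was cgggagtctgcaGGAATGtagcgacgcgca (chr9:8004720-8004749, minus strand), and the Wwtr1 site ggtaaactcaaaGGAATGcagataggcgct (chr3:57576029-57576058, minus strand). A match of letters shows neither binding nor regulation in these glands.

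Levels per length spanned a wide range (the plot of levels per kilobase). CPM values from here on, marker sums included, were scaled by TMM, which corrects for libraries dominated by a few genes. For levels per length alone they were also divided by the kilobases of annotated exon. Itgb5 and Itgb1 led with means of 104 and 101 CPM per kilobase over the 6 libraries, and their ranges overlapped. Amotl2 followed at 65.3 and Tln1 at 45.0, and the lowest Tln1 library was above the highest library of the next gene, Itga9. From Itga9 at 22.7 down to Itga7 at 2.62 CPM per kilobase, every gene's range overlapped that of its neighbour in the order. Ilk, Itga2 and Itgb8 had means below 1, and Ankrd1 had the lowest mean at 0.060.

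**Figure D1:**
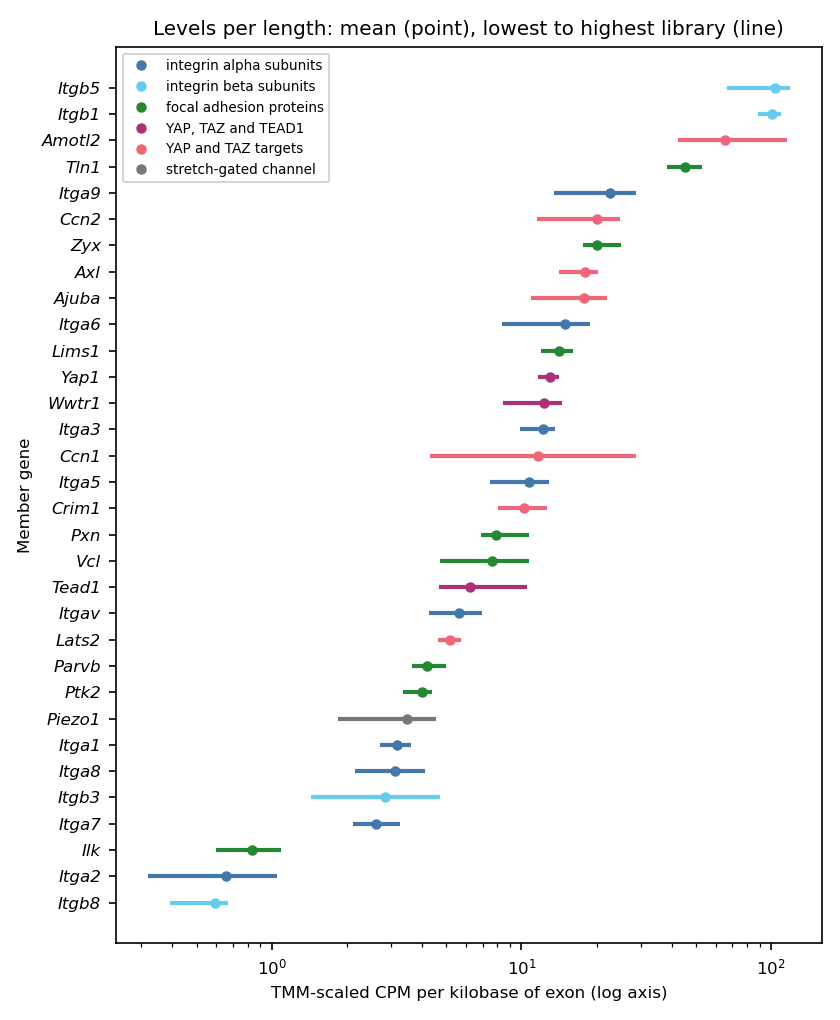
Levels of the 32 tested genes as TMM-scaled CPM per kilobase of exon (log axis), with the mean over 6 libraries as a point and the lowest to highest library as a line, coloured by role. Itgb5, Itgb1, Amotl2 and Tln1 stand above the rest, and Ilk, Itga2 and Itgb8 have means below 1.

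Of the summed alpha subunit level per kilobase, Itga9 held 29.98%, Itga6 19.7%, Itga3 16.1% and Itga5 14.2%, while Itgav held 7.41%. Itgb5 is known to pair with Itgav alone, and its level per kilobase was 14.3 to 25.5 times that of Itgav, depending on the library. Those ratios compare transcripts per annotated exon length and say nothing of protein or of receptor pairs.

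None of the 32 tested genes differed between the groups at an adjusted p of 0.05 by the quasi-likelihood test of edgeR (adjusted p = 0.999 for each), and 0 of all 16300 genes (0%) did. An unadjusted p under 0.05 was given to 0 of the 32 and to 2.82% of all genes. DESeq2 (2.44% of 28809 genes, without the low-count filter) and limma-voom (1.37% of the 16300) each gave it to 0 of the 32. Limma-voom with sample weights (1.84% of the 16300) gave it to 1. The log2 fold change, taken as VEGF/LysM minus WT, was above 0 in 23 of 32 genes and in 50.3% of all genes tested. With scaling by library size only it was above 0 in 25 of 32 and in 61.7% of all genes. Its median with TMM scaling was 0.13 over the 32 and 0.0013 over all genes. In bulk tissue, fewer cells of a type and less RNA per cell cannot be told apart.

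By role, the log2 fold change was above 0 in 7 of 9 alpha subunits (median 0.15), 3 of 4 beta subunits (0.11) and 5 of 8 focal adhesion proteins (0.11). It was above 0 in 2 of 3 of Yap1, Wwtr1 and Tead1 (median 0.0065) and in 5 of 7 tested targets (0.33), and Piezo1 had 0.32. Sizes were small: 31 of 32 genes lay within 0.5 log2 units of 0, as did 13652 of all 16300 genes. The 95% intervals extended by a median of 0.52 log2 units on each side, and by 0.61 over all genes. In 30 of 32 genes that distance was under 1, and the exceptions, Itga2 and Ccn1, are described with their roles. The plot of fold changes shows every interval crossing 0.

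**Figure D2:**
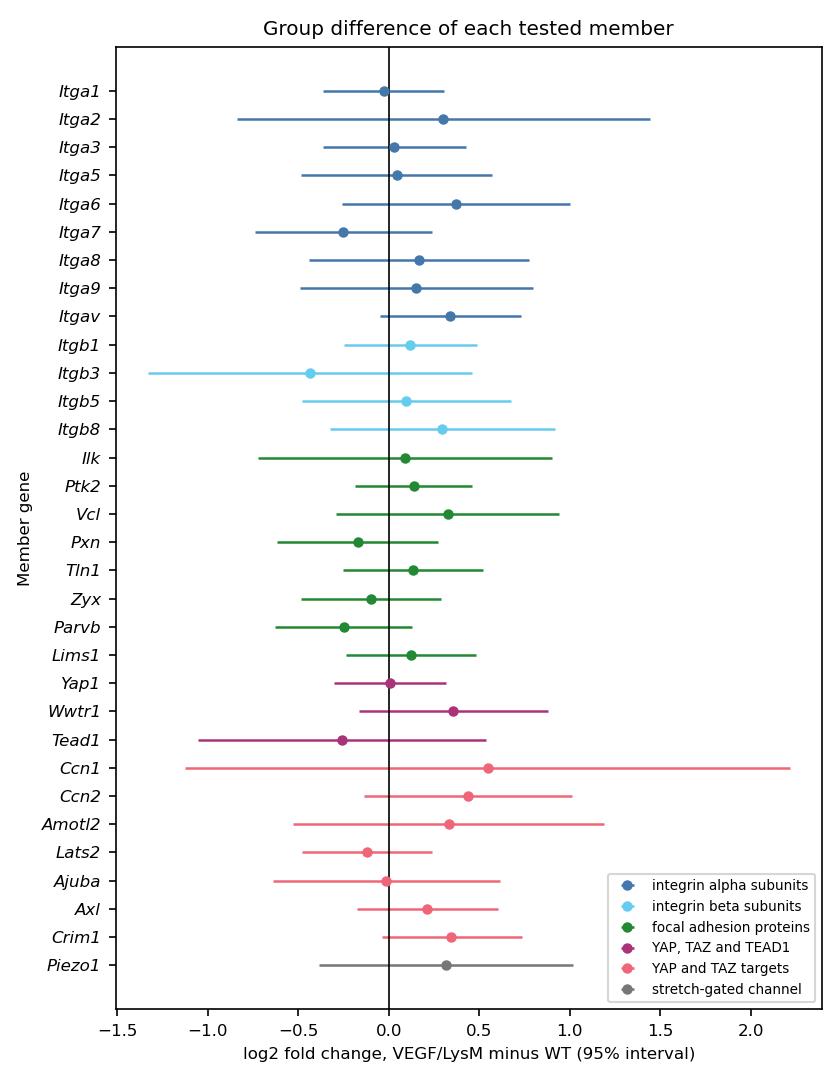
Log2 fold change (VEGF/LysM minus WT) of each tested gene with its 95% interval from edgeR's fit of 3 against 3 libraries, coloured by role. All 32 intervals cross 0, and the widest is that of Ccn1.

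Across the 6 libraries the genes varied about as much as others did. The median coefficient of variation was 18.2% for the 32 and 21.0% for all genes tested. Focal adhesion proteins were at 12.5% and targets of YAP and TAZ at 22.3%. WT replicate 3 held the lowest value of 15 of the 32 genes and the highest of 7, and over all genes it was lowest in 29.7% and highest in 28.4%. WT replicate 2 was the lowest library for 1 of the 32 genes and the highest for 7, and over all genes it was lowest in 9.18% and highest in 8.80%. The heat map by library shows WT replicate 3 in blue for Itga5, Itga6, Itga8, Itga9 and Itgb5 and as the reddest column for Itga2, Itgb3, Pxn, Zyx, Parvb, Itga7 and Tead1.

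**Figure D3:**
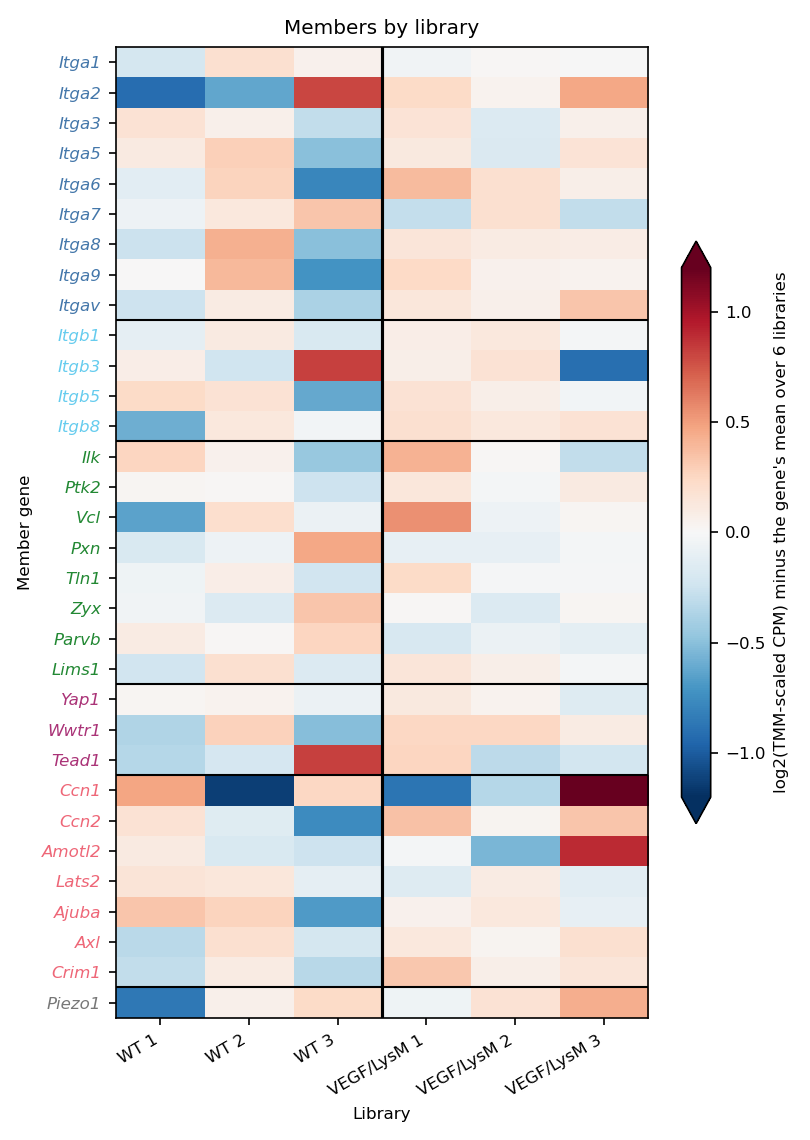
Log2 TMM-scaled CPM of each tested gene in each library minus the gene's mean over the 6 libraries (colour, scale cut at ±1.2), rows grouped by role and columns by group. WT replicate 3 is low for 15 genes and high for 7, and Ccn1 and Amotl2 are highest in VEGF/LysM replicate 3.

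Among the alpha subunits, Itgav and Itga6 differed most in favour of VEGF/LysM. Itgav, the chain shared by receptors for RGD-containing ligands such as vitronectin (chromosome 2, 83724397 to 83806916, plus strand, GRCm38), read 50.1, 63.5 and 45.8 CPM in WT replicates 1 to 3 and 65.2, 62.1 and 74.7 CPM in VEGF/LysM replicates 1 to 3. WT replicate 2 lay above VEGF/LysM replicate 2, so the groups overlapped. Its log2 fold change was 0.34 ± 0.17 (SE; unadjusted p = 0.0776), and with single libraries left out it ran from 0.24 (without WT replicate 3) to 0.49 (without WT replicate 2). Itga6, a laminin receptor chain, read 119, 157 and 75.5 CPM in WT and 170, 149 and 136 CPM in VEGF/LysM. WT replicate 3 was far below the other libraries, and WT replicate 2 was within the VEGF/LysM range. The log2 fold change of Itga6 was 0.37 ± 0.27, with 0.13 without WT replicate 3 and 0.64 without WT replicate 2.

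Itga2, a collagen receptor chain of epithelia and platelets, was scarce and rested on few reads. It read 2.28, 2.78 and 7.50 CPM in WT and 5.04, 4.42 and 5.94 CPM in VEGF/LysM. WT replicate 3 was the highest of all 6 libraries and the other WT libraries were the lowest. With all libraries its log2 fold change was 0.30 ± 0.48, with a 95% interval of -0.84 to 1.44. Without WT replicate 3 it was 1.01 ± 0.32 (edgeR, unadjusted p = 0.012, adjusted p = 1), the 1 gene of the 32 under an unadjusted p of 0.05 there, where 2.09% of all genes were. Limma-voom with sample weights gave 0.79 (unadjusted p = 0.0312, adjusted p = 1).

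The other alpha subunits lay closer to 0. Itga9, a receptor chain for tenascin-C, read 170, 222 and 103 CPM in WT and 201, 176 and 174 CPM in VEGF/LysM. The low WT replicate 3 lay below all other libraries and WT replicate 2 above them, and the log2 fold change of 0.15 ± 0.27 was -0.099 without WT replicate 3. Itga8, a chain of mesenchymal and smooth muscle cells, had 0.17 ± 0.26, and Itga5, the classical fibronectin receptor chain, 0.044 ± 0.22. For Itga8 and Itga5 too the sign turned without WT replicate 3 (-0.019 and -0.16). Itga3, another laminin receptor chain, had 0.031 ± 0.17, and Itga1, a collagen receptor chain, -0.028 ± 0.14. Itga7, the laminin receptor chain of muscle, had -0.25 ± 0.21, with 20.0, 22.9 and 26.3 CPM in WT and 17.2, 23.9 and 17.1 CPM in VEGF/LysM. Smooth muscle and pericyte markers summed to 327, 373 and 520.2 CPM in WT and 302, 340.0 and 389 CPM in VEGF/LysM. The list behind that sum was split. Before TMM scaling, WT replicate 3 was highest for Acta2, Myh11, Cnn1 and Mylk and lowest for Pdgfrb, Cspg4 and Tagln. VEGF/LysM replicate 3 was highest for Rgs5 and Notch3 and lowest for Acta2, Myh11, Cnn1 and Des. The part of these cells in the Itga7 and Itga8 values was not tested.

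The beta subunits that carry most of the level were close in both groups. Itgb1, the partner of most alpha chains (chromosome 8, 128685654 to 128733200, plus strand), averaged 394 ± 42.9 CPM in WT and 428 ± 23.0 CPM in VEGF/LysM (SD, n = 3). Its log2 fold change of 0.12 had a 95% interval of -0.25 to 0.49. Itgb5, the partner of Itgav in vitronectin binding, read 422.6, 408.3 and 236 CPM in WT and 407.5, 380.2 and 354 CPM in VEGF/LysM. WT replicate 3 was low and the other WT libraries were the highest, so the sign of Itgb5 turned when it was left out, from 0.098 to -0.13.

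Itgb3 and Itgb8 were the scarcer beta subunits. Itgb3, which pairs with Itgav and with the platelet chain Itga2b, read 16.8, 13.4 and 27.9 CPM in WT and 16.6, 17.8 and 8.48 CPM in VEGF/LysM. The extremes were the replicates numbered 3 of the groups, and the log2 fold change of -0.44 ± 0.38 was 0.20 without both and 0.013 by limma-voom with sample weights. Itga2b itself, one of the 2 other integrin genes of smallest p, read 6.20, 5.26 and 11.2 CPM in WT and 3.58, 1.95 and 4.71 CPM in VEGF/LysM. All 3 VEGF/LysM values of Itga2b were below all WT values (log2 fold change -1.15 ± 0.44, unadjusted p = 0.0356, adjusted p = 0.999 in edgeR's test). The 6 platelet and megakaryocyte markers, Itga2b among them, summed to between 10.3 and 19.6 CPM in the WT libraries and between 9.21 and 9.57 CPM in those of VEGF/LysM, with Gp1bb at 0 in every library. As Itga2b is part of that sum, the gap between the sums is no separate observation. Pf4, the only other marker of the list that was tested, overlapped between the groups. Before TMM scaling it read 4.57, 4.91 and 3.75 CPM in WT and 5.25, 7.28 and 4.61 CPM in VEGF/LysM. The part of platelets in these values was not tested. Itgb8, which with Itgav activates latent TGF-beta, read 4.32, 7.06 and 6.31 CPM in WT and 7.39, 7.05 and 7.30 CPM in VEGF/LysM. WT replicate 1 was low and the other 5 libraries were close together.

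Parvb was the 1 gene of the 33 whose groups did not overlap. It encodes beta-parvin, an actin-binding adaptor of focal adhesions that binds integrin-linked kinase (chromosome 15, 84232043 to 84315688, plus strand). It read 19.6, 18.5 and 22.0 CPM in WT and 16.1, 17.5 and 16.95 CPM in VEGF/LysM, each VEGF/LysM value below each WT value. Groups were apart in this way for 5.95% of all genes, with VEGF/LysM lower in 2.41% and higher in 3.54%, and 1 of 32 lower with 0 of 32 higher is near that background. The log2 fold change of Parvb was -0.25 ± 0.16 (unadjusted p = 0.164), and -0.30 to -0.18 with each library left out.

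Tln1, Vcl, Pxn and Zyx encode the core proteins that link integrins to actin. Tln1, or talin, which binds integrin tails and activates them, averaged 421 ± 44.6 CPM in WT and 462 ± 47.1 CPM in VEGF/LysM (SD, n = 3). The difference, 0.13 ± 0.16 on the log2 scale, was below its spread between replicates. Vcl, or vinculin, read 38.7, 69.4 and 57.6 CPM in WT and 88.2, 58.1 and 61.3 CPM in VEGF/LysM. The lowest and highest of these came from the replicates numbered 1, and the middle 4 values were mixed between the groups. Vcl had a log2 fold change of 0.33 ± 0.26, with 0.097 without VEGF/LysM replicate 1 and 0.53 without WT replicate 2. Pxn, the scaffold paxillin, read 56.5, 61.6 and 88.3 CPM in WT and 59.7, 60.1 and 63.3 CPM in VEGF/LysM. Zyx, the tension-sensitive protein zyxin, read 104, 95.7 and 135 CPM in WT and 108, 95.5 and 109 CPM in VEGF/LysM. WT replicate 3 was the highest library for Pxn and Zyx alike. Their log2 fold changes were below 0 with all libraries (-0.17 ± 0.19 and -0.098 ± 0.16) and above 0 without WT replicate 3 (0.044 and 0.055).

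Ptk2, focal adhesion kinase, had a log2 fold change of 0.14 ± 0.14, and Lims1, the adaptor PINCH1, 0.12 ± 0.15. Ilk, integrin-linked kinase, which joins PINCH and parvin in a complex, had only 239 counts over the 6 libraries, or 1.63 to 2.99 CPM. Its binding partner Lims1 was at 58.4 to 78.5 CPM. The exons of Ilk share 2106 bases with Taf10 and 355 bases with Rrp8, both on the opposite strand, and these genes had 8816 and 2666 counts. As the library protocol named in the labels does not mark strand, how reads were split between Ilk and Taf10 cannot be told from counts, and the level of Ilk is uncertain. Such overlaps with a gene of over 10% of the member's counts touched 6 of the 33 genes, also Vcl with Ap3m1, Piezo1 with Ctu2, Tln1 with Creb3, Crim1 with Fez2, and Itga7 with Mettl7b.

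Yap1, which encodes YAP (chromosome 9, 7931999 to 8004596, minus strand), was the steadiest tested gene of the 33. It read 122, 125 and 115 CPM in WT and 131, 124 and 108 CPM in VEGF/LysM, and the groups overlapped throughout. The log2 fold change of 0.0065 had a 95% interval of -0.30 to 0.31, and its sign turned with DESeq2 size factors (-0.0026). Wwtr1, which encodes TAZ, read 44.7, 69.7 and 40.5 CPM in WT and 68.6, 68.3 and 61.6 CPM in VEGF/LysM. WT replicates 1 and 3 lay below every VEGF/LysM library, and WT replicate 2 above them all. Its log2 fold change was 0.36 ± 0.22. Without WT replicate 3 it was 0.20 (edgeR, unadjusted p = 0.328, adjusted p = 1), and without WT replicate 2 it was 0.64 ± 0.15 (edgeR, unadjusted p = 0.00711, adjusted p = 0.656). Tead1, their DNA-binding partner, read 63.5, 70.1 and 143 CPM in WT and 96.7, 65.0 and 69.3 CPM in VEGF/LysM. WT replicate 3 stood far above the rest, and without it the log2 fold change went from -0.26 to 0.20.

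None of the 7 tested targets of YAP and TAZ passed the test, and the most variable were Ccn1 and Amotl2. Ccn1, a secreted matrix protein also named Cyr61, read 26.2, 8.66 and 22.4 CPM in WT and 10.3, 14.9 and 58.3 CPM in VEGF/LysM. VEGF/LysM replicate 3 was the highest library and the groups overlapped widely, with a ratio of 6.73 between the highest and the lowest library. The log2 fold change was 0.55 ± 0.71, with a 95% interval of -1.13 to 2.22, and -0.59 without VEGF/LysM replicate 3. Amotl2, a YAP-binding scaffold of cell junctions, read 421, 342 and 328 CPM in WT and 382, 266 and 725 CPM in VEGF/LysM. The same library was highest by far, and without it the log2 fold change went from 0.33 ± 0.36 to -0.17.

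Ccn1 is also an immediate early gene, one that cells switch on within minutes of serum, stretch or injury, and its highest libraries were shared with other such genes. The 3 libraries with the most Ccn1 (VEGF/LysM replicate 3, WT replicate 1 and WT replicate 3) were also the 3 highest for 11 of 17 immediate early genes, and for 7.81% of all genes tested. Egr1, an early zinc finger factor, read 159, 33.8 and 109 CPM in WT and 81.2, 83.3 and 442 CPM in VEGF/LysM. Relative to each gene's mean, the 17 genes had a median of 0.82 log2 units in VEGF/LysM replicate 3, 0.41 in WT replicate 3 and 0.20 in WT replicate 1, against -0.76, -0.58 and -0.36 in WT replicate 2, VEGF/LysM replicate 1 and VEGF/LysM replicate 2. Ccn1 has these 3 libraries on top by definition, and no other tested gene of the 33 did. The part of handling or stress in these values was not tested.

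**Figure D4:**
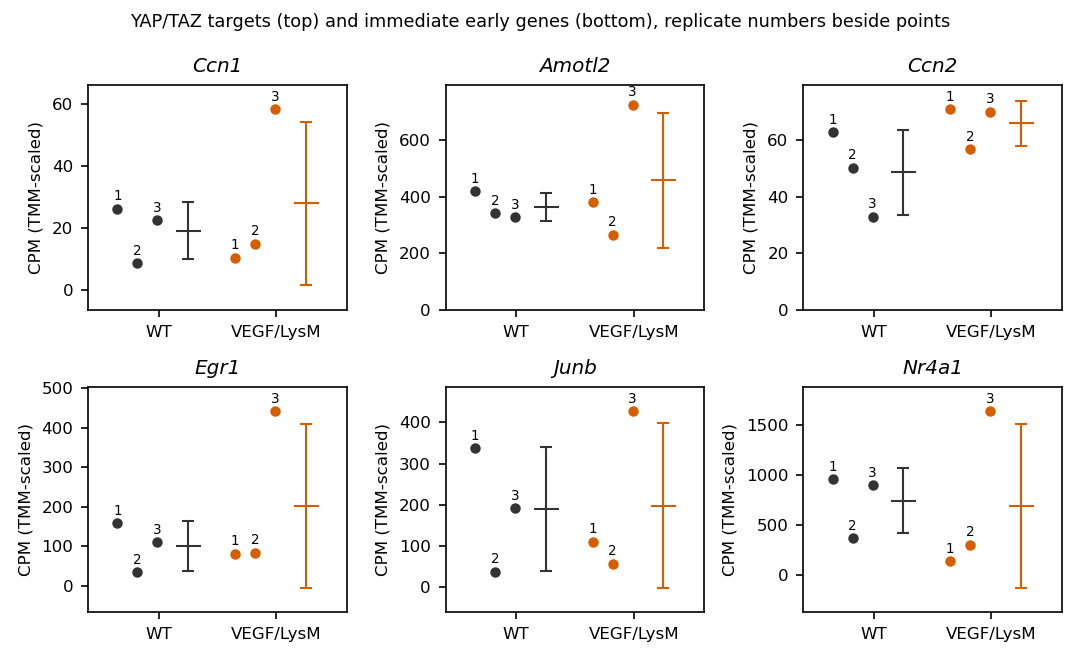
TMM-scaled CPM per library (points, numbered by replicate) with mean and SD (bars, n = 3) for the YAP and TAZ targets Ccn1, Amotl2 and Ccn2 and for the immediate early genes Egr1, Junb and Nr4a1. VEGF/LysM replicate 3 is highest for all but Ccn2.

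Ccn2, the matrix protein once called Ctgf, did not share that order. It read 62.7, 50.1 and 32.97 CPM in WT and 70.9, 56.6 and 69.9 CPM in VEGF/LysM. WT replicate 3 was low and WT replicate 1 lay within the VEGF/LysM range. The log2 fold change was 0.44 ± 0.24 (unadjusted p = 0.116). It was 0.22 without WT replicate 3 (unadjusted p = 0.223, adjusted p = 1 in edgeR's test), and 0.66 ± 0.24 without WT replicate 1 (edgeR, unadjusted p = 0.0332, adjusted p = 0.911), where 5.4% of all genes had an unadjusted p under 0.05. Crim1, a membrane protein that tethers BMPs and VEGF-A at the cell surface (chromosome 17, 78200248 to 78376592, plus strand), read 49.4, 65.0 and 48.1 CPM in WT and 76.2, 63.7 and 67.0 CPM in VEGF/LysM. WT replicate 2 was above VEGF/LysM replicate 2 and the other WT libraries were below all VEGF/LysM libraries. Its log2 fold change of 0.35 ± 0.16 ranked above the rest of the 32 tested genes in edgeR's test (unadjusted p = 0.0713, adjusted p = 0.999). It was 0.26 without WT replicate 3 and 0.50 without WT replicate 2.

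Axl, a receptor tyrosine kinase for Gas6, had a log2 fold change of 0.21 ± 0.17, and Lats2, the kinase that restrains YAP, -0.12 ± 0.15. Ajuba, a LIM protein that binds LATS kinases, read 80.0, 76.5 and 39.7 CPM in WT and 65.8, 69.5 and 59.2 CPM in VEGF/LysM. WT replicate 3 was the lowest library and the other WT libraries the highest, and the log2 fold change of -0.013 was -0.28 without WT replicate 3. Ankrd1, a widely used YAP reporter in cultured cells, had 0, 2 and 9 counts in WT and 1, 3 and 1 counts in VEGF/LysM. With so few reads no difference of Ankrd1 was detectable.

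Piezo1, a channel opened by membrane tension and known from endothelium and red cells, read 18.4, 34.9 and 39.2 CPM in WT and 32.3, 37.7 and 45.3 CPM in VEGF/LysM. WT replicate 1 was the lowest library and the others overlapped. Its log2 fold change was 0.32 ± 0.30, with 0.054 without WT replicate 1 and 0.52 without WT replicate 3. Erythrocyte markers summed to 608, 209 and 407 CPM in WT and 173, 89.5 and 157 CPM in VEGF/LysM, and their part in the Piezo1 values was not tested. Of 7 other mechanosensitive channel genes 5 were above 0 (median 0.27), led by Pkd2, a cation channel of cilia and internal membranes, at 0.33 ± 0.16, and by Kcnk2, a stretch-activated potassium channel, at 0.37 ± 0.28.

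The other genes of these pathways, taken from lists set by role, had 0 calls in every list at an adjusted p of 0.05. Of 11 tested integrin subunits outside the 33, mostly chains of leukocytes and platelets, 2 were above 0 (median -0.35), and without WT replicate 3 it was 6 of 11 (median 0.085). Itgb7, a lymphocyte chain, read 5.18, 13.2 and 54.7 CPM in WT and 8.21, 8.04 and 14.4 CPM in VEGF/LysM, high in the library rich in lymphocyte markers. Of 29 other focal adhesion proteins 9 were above 0 (median -0.033, or 0.047 with scaling by library size only). Csk, the kinase that shuts off Src, read 109, 106 and 132 CPM in WT and 92.4, 89.1 and 90.8 CPM in VEGF/LysM, with no overlap (-0.35 ± 0.13, unadjusted p = 0.0354, adjusted p = 0.999 in edgeR's test). Parva, the close relative of Parvb, had -0.29 ± 0.17.

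Among 22 integrin ligands 14 were above 0 (median 0.096). Tnc, tenascin-C, a ligand of Itga9 and Itgav receptors, had the smallest p of these at 24.5, 26.7 and 19.2 CPM in WT and 48.3, 30.4 and 37.3 CPM in VEGF/LysM. Each VEGF/LysM value of Tnc was above each WT value, with a log2 fold change of 0.72 ± 0.22 that did not pass (unadjusted p = 0.0147, adjusted p = 0.999 in edgeR's test). Vtn, vitronectin, which the liver secretes, read 2.62, 3.45 and 1629 CPM in WT and 1.64, 3.68 and 8.77 CPM in VEGF/LysM. That high value came with the hepatocyte markers of the same library.

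Of 23 Hippo kinases and regulators 13 were above 0 (median 0.035), with Sav1, the scaffold of the Hippo kinases, at 0.28 ± 0.19 and Nf2, the upstream regulator merlin, at 0.39 ± 0.27. Of 17 tested further targets of YAP and TAZ 7 were above 0 (median -0.10), against 5 of 7 of the targets among the 33. Ccdc80, a matrix protein, had 0.46 ± 0.21 and Birc5, the mitotic protein survivin, -0.84 ± 0.39. Of 13 targets of MRTF and SRF, the other tension-sensing transcription pathway, 6 were above 0 (median -0.12), with Acta2, smooth muscle actin, at -1.12 ± 0.37 (unadjusted p = 0.0186, adjusted p = 0.999 in edgeR's test) and Cnn2, a calponin, at -0.54 ± 0.23. Immediate early genes were above 0 in 11 of 17 (median 0.11), and in 2 of 17 without VEGF/LysM replicate 3. Fosl2, a Fos family factor, had 0.49 ± 0.24 and Klf2, a shear-responsive factor, -0.52 ± 0.31.

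The medians moved when single libraries were left out (the plot of medians with libraries left out). Without WT replicate 3 the median of the 32 genes was 0.054 with 19 above 0 (51.5% of all genes), and without both replicates numbered 3 it was 0.066 with 21 above 0 (50.1% of all genes). The alpha and beta subunit medians were -0.019 and -0.012 without WT replicate 3, and that of the focal adhesion proteins was -0.052 without VEGF/LysM replicate 1. The median of the YAP and TAZ targets was 0.049 without VEGF/LysM replicate 3 and -0.16 without both. Leaving out WT replicate 2 went the other way. The median was then 0.21, 6 of 32 genes were higher at an unadjusted p under 0.05 (1.96% of all genes), and 12 of the 33 were higher without overlap (11.6% of all genes). Those 6 were Itga6, Itga8, Itgav, Wwtr1, Axl and Crim1, each with an adjusted p of 0.656 in edgeR's test. In the same fit Parvb was lower without overlap (9.43% of all genes). Without WT replicate 3, Itga2 alone was higher without overlap (7.92% of all genes). Itgb5, Parvb, Lats2 and Ajuba were then lower without overlap (6.59% of all genes).

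**Figure D5:**
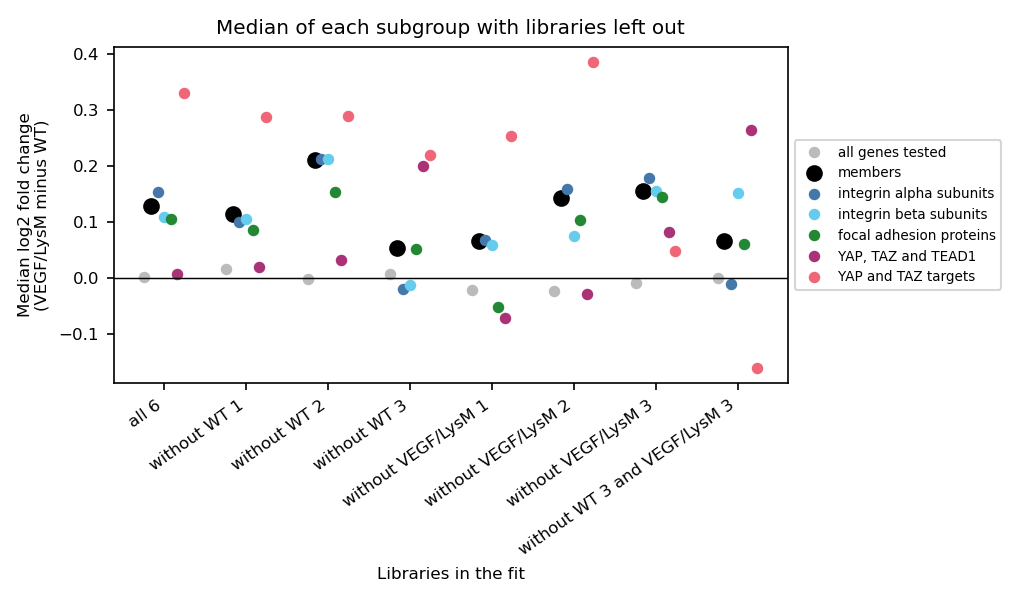
Median log2 fold change (VEGF/LysM minus WT) of all genes tested, of the 32 tested genes and of 5 role groups, with all 6 libraries and with libraries left out. The median of the 32 runs from 0.054 without WT replicate 3 to 0.21 without WT replicate 2.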

How the data were processed

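RNA of fresh glands was sequenced after a Smart-seq2 type preparation, per the labels' protocols. Kallisto, DESeq2 1.36.0 and the build mm10 are named in the submitters' processing notes, with no role, and the kallisto version and annotation are not given here. The authors deposited one table of raw counts by gene, whole numbers without normalisation, and column names were matched to sample titles. Symbols came from a reference table of gene names (54409 of 54532 identifiers), and exon lengths and coordinates from GENCODE M21 on GRCm38. edgeR 4.0.16 under R 4.3.3 tested 16300 genes after filterByExpr (minimum count 10, total 15) with library sizes recomputed after the filter, TMM scaling and group as the only term, two-sided, with Benjamini-Hochberg adjustment across the 16300 and a threshold of 0.05. Standard errors were derived from that fit, as the size of the log2 fold change over the square root of the F statistic. The 95% intervals used t quantiles on these standard errors. DESeq2 1.42.0, limma 3.58.1, other scalings and filters, a replicate block and left-out libraries were alternatives. The steps were tested on simulated counts. An exact permutation of 3 against 3 cannot reach p below 0.1. Named genes are all 33 plus the 2 of smallest p in each list of other genes, and any further gene was chosen after its values were seen. Members and lists were chosen with earlier results of these data known.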

Additional observations from a re-analysis of the deposited data

How the results depend on the processing

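The 0 calls among the 32 genes held in every alternative run. Over all genes the count was 3 with DESeq2, 0 to 1 with a library left out (1 without WT replicate 3), and 0 otherwise. Genes at an unadjusted p under 0.05 numbered 459, against 703 with DESeq2, 1098 without a filter, 224 with limma-voom, 300 with sample weights and 143 to 1279 with a library left out. The median of the 32, 0.13, lay between 0.054 and 0.21 in every alternative run. Its SD between replicates was 0.11, about as large as the value itself. With 3 libraries per group, leaving 1 out can shift a group mean by only part of that SD. A range within that SD was thus close to fixed in advance and is no sign of stability. Of the 32 genes 17 kept their direction in every alternative and 15 did not, and the cause was not tested. Ranges with each library left out were -0.13 to 0.070 for Itga1, -0.097 to 0.13 for Itga3, -0.16 to 0.21 for Itga5, -0.019 to 0.49 for Itga8, -0.099 to 0.43 for Itga9, -0.64 to -0.079 for Itgb3, -0.13 to 0.24 for Itgb5, -0.13 to 0.25 for Ilk, -0.29 to 0.044 for Pxn, -0.19 to 0.055 for Zyx, -0.071 to 0.082 for Yap1, -0.47 to 0.20 for Tead1, -0.59 to 0.92 for Ccn1, -0.17 to 0.59 for Amotl2 and -0.28 to 0.16 for Ajuba. Without WT replicate 3 and VEGF/LysM replicate 3 the direction reversed for Itga3 (-0.10), Itga5 (-0.21), Itga9 (-0.051), Itgb3 (0.20), Itgb5 (-0.071), Pxn (0.028), Zyx (0.034), Tead1 (0.28), Ccn1 (-0.46) and Amotl2 (-0.23). With sample weights in limma-voom it reversed for Itga3 (-0.041), Itga5 (-0.15), Itga8 (-0.042), Itga9 (-0.035), Itgb3 (0.013), Itgb5 (-0.013), Zyx (0.029) and Tead1 (0.11). Scaling reversed Itga1 (0.0010 with upper-quartile factors, 0.045 with library size only), Yap1 (-0.0026 with DESeq2 size factors) and Ajuba (0.018 with library size only), and limma-voom reversed Ajuba (0.039). With the replicate number as a block, 0 of the 32 genes and 0 of all genes were called, 270 genes fell under an unadjusted p of 0.05 against 459 without the block, the median was 0.14, and Ajuba reversed (0.049). Whether the numbers pair the samples cannot be settled from so few libraries. Deviations of same-numbered libraries correlated at 0.064, -0.014 and 0.25. WT replicate 1 correlated best with VEGF/LysM replicate 2 (0.13) and WT replicate 2 with VEGF/LysM replicate 1 (0.32). WT replicate 3 correlated best with the library of its own number. Counts under 10 per library, as for Ankrd1, allow no comparison.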
